A study of Mus musculus with 12 samples.

Results

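The genes described here encode the enzymes of sterol synthesis, the enzymes of fatty acid synthesis, elongation and desaturation, and the proteins that control both sets. They were chosen by symbol from a fixed list of 35 genes, and 34 of them were found among the 13780 genes of the count table. Of these, 18 belong to the sterol branch, 11 to the fatty acid branch and 5 encode the sterol regulatory element binding proteins (SREBPs) or proteins that control them, called regulators here. Me1 is not analysed here. All 34 passed the filter on low counts, so each of them was tested among 13767 genes.

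The libraries were poly(A) RNA-seq of CD8+ T cells from the spleens of mice, in 3 groups of 4. Naïve cells were frozen directly after purification, without culture or treatment. Media cells were activated for 72 h with beads carrying anti-CD3 and anti-CD28 plus IL-2 at 10 U/ml, with no further addition. Lactate cells were activated in the same way with sodium lactate present at 40 mM. The donors were wild-type C57BL/6J mice of 8 to 12 weeks, and the medium held fetal bovine serum, which carries cholesterol and fatty acids of its own. The RNA-seq comparison had no sodium chloride group, so the lactate ion cannot be told apart from the added sodium or osmolarity. Each group came from 4 mice, and with the donor tags in the labels read as restarting at library number 16, 3 mice are represented in both activated groups.

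Cells make cholesterol from acetyl-CoA through mevalonate, farnesyl diphosphate, squalene and lanosterol, and they make long-chain fatty acids from the same acetyl-CoA through malonyl-CoA. SREBPs are membrane-bound transcription factors that switch on both routes. When sterol in the endoplasmic reticulum is low, Scap escorts an SREBP to the Golgi for cleavage, and when sterol is plentiful an Insig protein holds the complex back. T cells that leave rest and start to divide must build membrane, and SREBP activity is part of that programme.

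Promoter sequence from RefSeq (GRCm38.p6) was at hand for 27 of the 34 genes, in 36 windows. The 5 stretches printed here are the 250 bases before the start site of 5 of the 10 members called between lactate and media. They are Hmgcs1, Pmvk and Lss, which were lower with lactate, and Elovl1 and Scap, which were higher. Acss2 and Insig1, also called lower, have windows that are not printed. Capitals mark CCAAT, the box bound by NF-Y, on either strand, and in Hmgcs1 also the sterol response element core TCACNCCAC.
Hmgcs1, chr13:119690101-119690350, plus strand: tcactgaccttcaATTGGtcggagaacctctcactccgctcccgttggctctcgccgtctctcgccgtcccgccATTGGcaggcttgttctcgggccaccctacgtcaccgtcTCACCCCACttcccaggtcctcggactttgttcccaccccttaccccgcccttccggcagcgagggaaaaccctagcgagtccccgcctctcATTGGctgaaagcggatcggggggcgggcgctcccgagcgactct
Pmvk, chr3:89454291-89454540, plus strand: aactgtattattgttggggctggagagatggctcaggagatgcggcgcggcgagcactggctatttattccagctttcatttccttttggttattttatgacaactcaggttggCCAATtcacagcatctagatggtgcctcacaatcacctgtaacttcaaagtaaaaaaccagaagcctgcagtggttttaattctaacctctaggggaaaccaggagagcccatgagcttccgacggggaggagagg
Lss, chr10:76531355-76531604, plus strand: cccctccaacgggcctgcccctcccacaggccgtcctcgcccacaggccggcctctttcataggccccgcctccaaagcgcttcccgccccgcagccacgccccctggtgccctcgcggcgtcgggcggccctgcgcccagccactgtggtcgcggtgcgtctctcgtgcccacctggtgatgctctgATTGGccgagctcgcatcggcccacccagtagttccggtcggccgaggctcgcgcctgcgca
Elovl1, chr4:118427843-118428092, plus strand: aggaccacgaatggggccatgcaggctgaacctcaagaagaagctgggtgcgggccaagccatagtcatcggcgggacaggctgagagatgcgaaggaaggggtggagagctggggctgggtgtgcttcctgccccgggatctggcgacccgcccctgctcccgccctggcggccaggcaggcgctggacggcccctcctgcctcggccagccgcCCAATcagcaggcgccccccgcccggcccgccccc
Scap, chr9:110333038-110333287, plus strand: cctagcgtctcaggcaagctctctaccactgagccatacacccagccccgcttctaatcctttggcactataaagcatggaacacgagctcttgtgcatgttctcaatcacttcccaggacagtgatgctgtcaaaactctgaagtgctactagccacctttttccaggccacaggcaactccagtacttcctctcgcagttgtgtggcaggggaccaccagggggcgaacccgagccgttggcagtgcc

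Depth lay between 14726904 and 21478137 counts per library, and values are given as counts per 1000000 (CPM) of a library size scaled with TMM (trimmed mean of M values), unless a sentence names TPM, which also divides by gene length. Both are relative to the total of a library, and a change in the make-up of the cells cannot be told apart from a change in RNA per cell. CD8+ T cell markers were present throughout (summed over 5 genes, 1580 to 3580 CPM in naïve, 2740 to 3460 in media and 2050 to 2610 in lactate libraries). Cd8a was at 388 to 1208, 821 to 1068 and 766 to 931 CPM, while Cd3d, Cd3e and Cd3g were lower in lactate than in media (log2 -0.74, -0.91 and -0.80, adjusted p = 0.00233, 0.000269 and 0.0091), and Cd8b1 was lower in media than in naïve cells (log2 -0.93, adjusted p = 0.00287). Naïve libraries also held B cell markers (467 to 1130 CPM summed over 5 genes, against 9.03 to 16.1 in media and 5.69 to 7.65 in lactate), myeloid markers (410 to 1260 CPM over 5 genes, against 11.9 to 18.6 and 5.23 to 10.9) and red cell markers (84.1 to 3370 CPM over 4 genes, against at most 1.9 in activated libraries). All 5 markers of each of these lists but 1 of red cells were measured, and Lyz2, a defining myeloid marker, was at 0 to 0.109 CPM in activated libraries against 78.1 to 263 in naïve. CD4+ T cell markers summed to 30.3 to 52.0 CPM in naïve libraries and to at most 9.41 in activated ones. The part of these cells in the comparisons with naïve libraries was not tested. Naïve replicate 4 stood apart from the other naïve libraries, being the highest of the 4 for 21 members and the lowest for 10, and it had the lowest Cd8a. It was library number 26 and the others were 7, 8 and 9. Its difference therefore cannot be told apart from one between ranges of library numbers.

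The sterol branch as a whole was higher in activated than in naïve cells. Naïve cells were not cultured, so activation cannot be told apart from 72 h of culture with serum and IL-2. A rise or fall on activation means this difference throughout. All 18 sterol genes were higher in media than in naïve cells in edgeR's quasi-likelihood test (adjusted p of at most 0.01, adjusted by Benjamini-Hochberg over all genes tested), against 28.5% of all tested genes called higher and 29.0% called lower, with a median log2 fold change of 3.10. All 18 were also higher in lactate than in naïve cells, against 33.0% of all genes called higher and 32.0% called lower, with a median of 2.62. In the fatty acid branch 9 of 11 genes were higher in media than in naïve cells and none was lower, with a median of 1.02. Lactate against naïve gave 8 genes higher, 1 lower and a median of 1.05 in that branch. The comparisons share their naïve libraries, so they are set side by side here and not combined.

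Between the activated groups the movement was smaller and mostly downward. With lactate, 4 sterol genes were lower than in media and none was higher, 3 fatty acid genes were lower and 1 was higher, and 1 regulator was lower and 1 higher. Over all genes 11.1% were called lower and 13.9% higher, so the 8 of 34 members that were lower made up 23.5% and the 2 that were higher 5.88%. The median log2 fold change of the members was -0.35, against -0.0016 for all genes tested. Every lactate library lay under every media library for 17 members and above for 3, while such separation held for 21.5% of all genes in the lower direction and 23.2% in the higher. A fit of the 2 activated groups alone, without naïve libraries or a block, called 7 sterol genes, 5 fatty acid genes and 3 regulators lower. It called 17.2% of all genes lower and 19.8% higher. With the donors added to that fit as a block, the lower calls were 7, 5 and 2 and the 2 higher calls stood. The donor block called 13.7% of all genes lower and 15.6% higher. Only 3 mice have libraries in both groups, so the donor block rests on them. Naïve replicate 4 enters this comparison only through the filter, the scaling and the estimate of spread, which all 12 libraries share. Without naïve replicate 4 the numbers of lower calls were 8, 5 and 3, and the share of all genes called lower rose as well, to 16.8%.

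**Figure D1:**
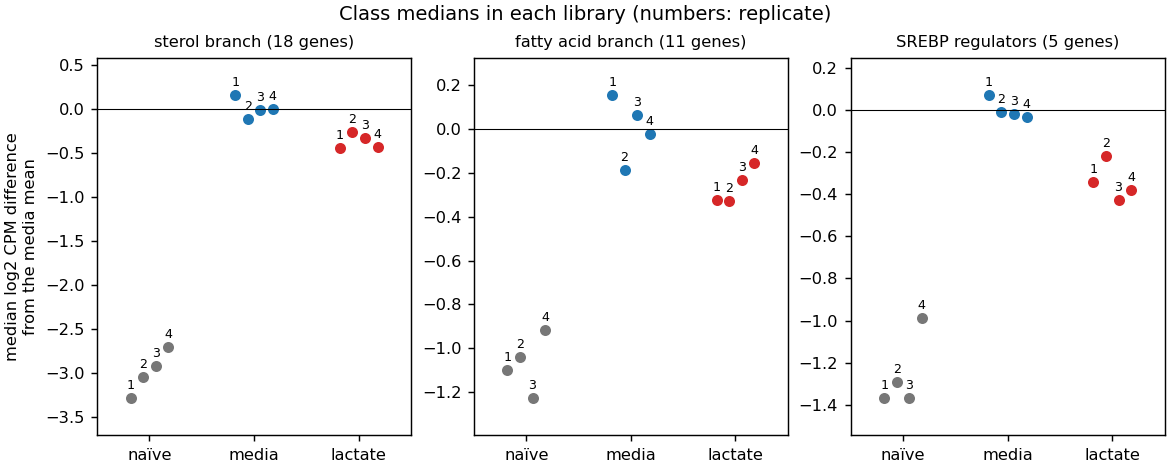
Median over the genes of each class of the log2 CPM difference from the mean of the media libraries, 1 point per library with its replicate number, for the sterol branch (18 genes), the fatty acid branch (11 genes) and the SREBP regulators (5 genes). The vertical scales differ between panels. Sterol medians lay between -3.29 and -2.70 in naïve libraries and between -0.44 and -0.26 in lactate libraries.

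The class medians by library put the step of activation and the step of lactate on one scale. For the sterol branch every lactate library was under the lowest media library, at -0.12. The fatty acid medians of the lactate libraries, -0.33 to -0.16, overlapped those of the media libraries, -0.19 to 0.16. Summed over genes, sterol branch TPM was 296 to 387 in naïve, 2350 to 2890 in media and 1490 to 1920 in lactate libraries. Fatty acid branch TPM summed to 665 to 857, 2990 to 3680 and 2160 to 2450, and Scd2 alone had a mean of 2058 TPM in media and 1227 TPM in lactate.

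The first step of sterol synthesis listed holds the largest lower call of the branch. Hmgcs1, which joins acetyl-CoA and acetoacetyl-CoA into HMG-CoA (chromosome 13, 119690379 to 119708260, GRCm38, plus strand), stood at 53.9, 49.5, 57.1 and 96.9 CPM in naïve libraries, 891, 716, 743 and 673 CPM in media and 424, 502, 399 and 379 CPM in lactate. All media libraries were above all lactate libraries, which in turn were above all naïve libraries. Hmgcs1 was 11.7-fold higher in media than in naïve cells (adjusted p = 3.05e-08) and 6.62-fold higher in lactate than in naïve cells (adjusted p = 1.35e-07). Lactate against media gave a 1.77-fold lower level (log2 fold change -0.83 ± 0.19 (SE), adjusted p = 0.0047). The adjusted p rose above 0.01 when any of media replicates 1, 2 and 3 or lactate replicates 1, 3 and 4 was left out, at most to 0.0185 without lactate replicate 4. Of the exon bases of Hmgcs1, 12.1% overlap Gm48342 on the opposite strand, and the strand setting of the counting was not given in the sources used here.

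Of the kinases and the decarboxylase that turn mevalonate into isopentenyl diphosphate, 1 of 3 was called. Pmvk, phosphomevalonate kinase, stood at 12.6, 13.6, 14.8 and 8.96 CPM in naïve libraries, 113, 112, 106 and 127 CPM in media and 60.6, 79.4, 70.7 and 74.2 CPM in lactate. The 3 groups did not overlap, and lactate was 1.61-fold lower than media (log2 fold change -0.68 ± 0.14 (SE), adjusted p = 0.00205). Mvk, which carries out the phosphorylation before it, overlapped between media (37.3 to 44.0 CPM) and lactate (33.4 to 44.5 CPM), with log2 -0.11, adjusted p = 0.532. Mvd, the decarboxylase after it, overlapped as well, at 73.3 to 107 CPM and 67.9 to 94.2 CPM (log2 -0.25, adjusted p = 0.215). The difference between Pmvk and its neighbours in the pathway was not tested.

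The isomerase and the prenyl synthases also overlapped between the activated groups. Idi1, which interconverts the isoprene units, had log2 -0.22, adjusted p = 0.257, and Fdps, which builds farnesyl diphosphate, had log2 -0.13, adjusted p = 0.689. Against naïve cells media raised Idi1 8.24-fold and Fdps 9.93-fold. Of the exon bases of Fdps, 26.7% overlap the gene model Gm43738 on the same strand, so its counts are uncertain.

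Squalene is made by Fdft1, oxidised by Sqle and cyclised by Lss to lanosterol. Lss (chromosome 10, 76531588 to 76557138, plus strand) stood at 24.6, 25.1, 26.5 and 23.7 CPM in naïve libraries, 306, 246, 284 and 241 CPM in media and 172, 214, 191 and 182 CPM in lactate. The lowest media library was above the highest lactate library. Lss was 10.8-fold higher in media than in naïve cells (adjusted p = 9.28e-10) and 1.42-fold lower in lactate than in media (log2 fold change -0.51 ± 0.10 (SE), adjusted p = 0.00176). Fdft1 did not overlap between media (125 to 160.2 CPM) and lactate (95.8 to 121 CPM) but was not called (log2 -0.38, adjusted p = 0.0942), and 18.3% of its exon bases overlap Ctsb on the opposite strand. Sqle overlapped, with log2 -0.29, adjusted p = 0.241.

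The 8 enzymes that turn lanosterol into cholesterol gave no call between the activated groups in edgeR's test over all 12 libraries. Over all genes that test called 11.1% lower. Of these 8, 4 had an unadjusted p under 0.05, but the share of all genes under it was not counted. DESeq2 called 1 of the 8 lower, Sc5d, against 16.8% of all genes. Cyp51, the lanosterol demethylase, had the largest rise of the branch on activation, from 22.5, 21.3, 24.5 and 46.1 CPM in naïve libraries to 457, 376, 416 and 377 CPM in media, 14.2-fold (adjusted p = 3.56e-08). In lactate libraries it stood at 276, 338, 293 and 265 CPM, under every media library, with log2 -0.47, adjusted p = 0.0876. With the donor block Cyp51 (adjusted p = 0.00621), Nsdhl (0.00437) and Dhcr7 (0.00496) were lower. Without naïve replicate 4, Cyp51 (0.00168), Dhcr7 (0.000667), Sc5d (0.000955) and Fdft1 (0.00686) were lower.

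Sc5d and Dhcr7 act at the last steps. Sc5d, the lathosterol desaturase, ranged over 136 to 161 CPM in media and 98.3 to 119 CPM in lactate, without overlap (log2 -0.45, adjusted p = 0.0189). Dhcr7, the 7-dehydrocholesterol reductase, ranged over 130.2 to 172 CPM and 93.9 to 113 CPM, again without overlap (log2 -0.57, adjusted p = 0.0409). Msmo1, the sterol C4 methyl oxidase, overlapped through lactate replicate 2 at 228 CPM (log2 -0.40, adjusted p = 0.127).

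The remaining demethylation enzymes, the isomerase and the reductase Tm7sf2 overlapped between the activated groups. Nsdhl, a C4 decarboxylating dehydrogenase, had log2 -0.30, adjusted p = 0.116, and Tm7sf2 had log2 -0.08, adjusted p = 0.717. Hsd17b7, the 3-keto reductase of the same complex, and Ebp, the sterol isomerase, were the 2 of 18 whose estimates lay above 0, at log2 0.32, adjusted p = 0.0786 and log2 0.15, adjusted p = 0.258. With the title numbers as a block Hsd17b7 was called higher (adjusted p = 0.00881). With the donor block it was not called (log2 0.20, adjusted p = 0.134). Ebp also had the smallest rise of the branch on activation, 1.40-fold (adjusted p = 0.00065), and that call was lost without naïve replicate 2 (adjusted p = 0.0108).

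Stard4, a cytosolic carrier of cholesterol, closes the sterol branch. It stood at 33.4, 32.6, 35.8 and 44.4 CPM in naïve libraries, 487, 432, 466 and 391 CPM in media and 282, 326, 310.4 and 255 CPM in lactate, with no overlap between groups. Media raised it 12.2-fold over naïve cells (adjusted p = 1.66e-09), and lactate was 1.51-fold lower than media (log2 fold change -0.60 ± 0.12 (SE), adjusted p = 0.00189). The calls of Pmvk, Lss and Stard4 stood in all 12 fits that left out a library.

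**Figure D2:**
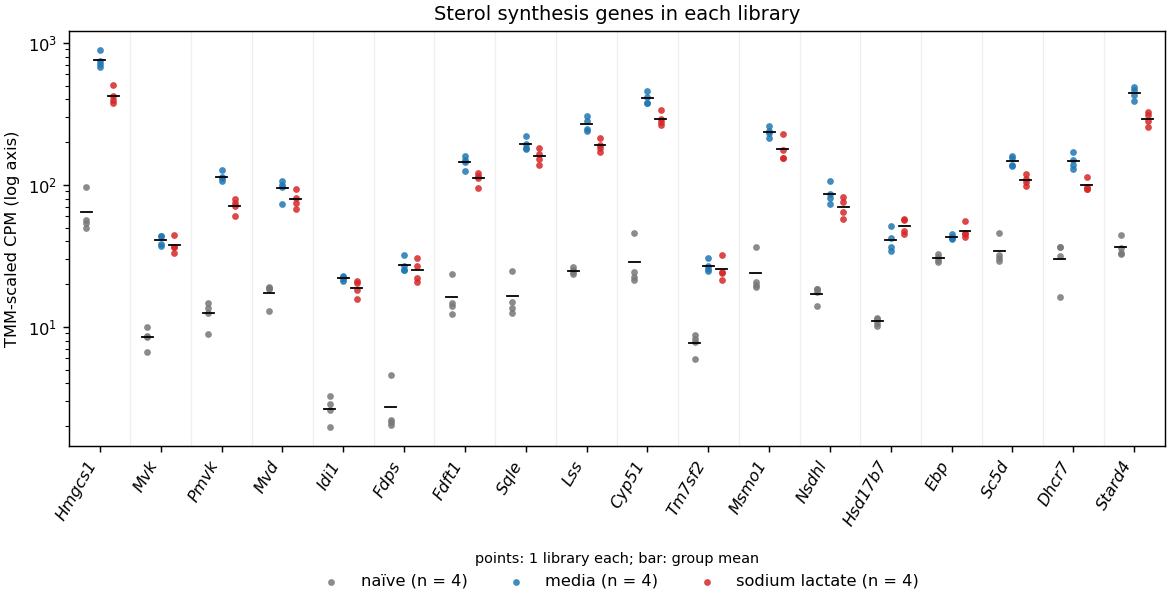
TMM-scaled CPM (log axis) of the 18 sterol branch genes in order along the pathway, with naïve libraries in grey, media in blue and sodium lactate in red, 1 point per library and a bar at the group mean. The naïve points lie under all activated points for every gene, and the lactate points lie under all media points for 8 genes.

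In the fatty acid branch the enzymes that build palmitate gave no call between the activated groups. Acly, which releases acetyl-CoA from citrate, had means of 449 ± 49.9 CPM (SD, n = 4) in media and 451 ± 29.9 CPM (SD, n = 4) in lactate. Acaca, acetyl-CoA carboxylase, had 65.4 ± 7.51 CPM (SD, n = 4) and 65.9 ± 12.1 CPM (SD, n = 4). Fasn, fatty acid synthase, had 418 ± 69.4 CPM (SD, n = 4) and 467 ± 104 CPM (SD, n = 4). The groups overlapped for all 3, with log2 fold changes of 0.01, 0.01 and 0.16 (adjusted p = 0.988, 0.971 and 0.479, SE 0.10, 0.14 and 0.17), and the sign of Acly and Acaca turned under DESeq2's size factors. On activation all 3 rose, 1.72-fold, 2.26-fold and 1.85-fold over naïve cells.

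Acss2, which makes acetyl-CoA from free acetate, is the other source of acetyl-CoA listed. It stood at 71.3, 65.3, 81.3 and 34.3 CPM in naïve libraries, 70.8, 72.2, 73.5 and 78.9 CPM in media and 29.4, 43.7, 39.3 and 40.5 CPM in lactate. Media did not differ detectably from naïve (log2 0.23, adjusted p = 0.355), while lactate was 1.93-fold lower than media (log2 fold change -0.95 ± 0.21 (SE), adjusted p = 0.00389), with no overlap. Acss2 was also the only member called lower in lactate than in naïve cells (log2 -0.72, adjusted p = 0.00791), although the groups overlapped through naïve replicate 4, and that call was lost in 9 of the 12 fits that left out a library (highest adjusted p 0.0276, without lactate replicate 1) and in 3 of the other alternatives. The lower call against media was lost in 6 of the 12 fits that left out a library: without any of media replicates 2, 3 and 4 and of lactate replicates 1, 3 and 4 (highest adjusted p 0.0143, without lactate replicate 1). Of its exon bases, 9.12% overlap Gss on the opposite strand.

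The delta-5 and delta-6 desaturases Fads1 and Fads2 make polyunsaturated fatty acids and lie near each other on chromosome 19. Fads1 (10182888 to 10196877, plus strand) stood at 30.6, 27.2, 20.8 and 21.3 CPM in naïve libraries, 128, 105, 116 and 118 CPM in media and 61.7, 57.8, 59.1 and 65.8 CPM in lactate. Fads1 had the smallest adjusted p of the members between the activated groups, with a 1.91-fold lower level in lactate (log2 fold change -0.93 ± 0.12 (SE), adjusted p = 0.000171), and the call stood in all 12 fits that left out a library. Fads2 (10062765 to 10101746, minus strand) was close to absent before activation, at 1.13, 3.66, 2.32 and 1.29 CPM, and reached 189, 140.3, 179 and 163 CPM in media, an 80.0-fold rise and the largest of the members (adjusted p = 5.42e-09). In lactate libraries Fads2 stood at 90.4, 102, 90.6 and 93.4 CPM, under every media library, and narrowly missed the threshold (log2 fold change -0.83 ± 0.22 (SE), adjusted p = 0.0102). With the donor block its adjusted p was 0.000562.

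Scd1 and Scd2 encode the stearoyl-CoA desaturases that make oleate, and are paralogs close together on chromosome 19. Scd2 stood at 114, 122, 122 and 67.8 CPM in naïve libraries, 3390.3, 3279, 3375 and 2908 CPM in media and 1944, 2409, 2066 and 2071 CPM in lactate. It rose 30.5-fold in media over naïve cells (adjusted p = 2.06e-09) and was 1.53-fold lower in lactate than in media (log2 fold change -0.61 ± 0.16 (SE), adjusted p = 0.00961). That call was lost in 9 of the 12 fits that left out a library, at most to an adjusted p of 0.0296 without lactate replicate 1, while the groups did not overlap. Scd1 was at 145, 153, 84.6 and 237 CPM in naïve libraries, 347, 256, 329 and 321 CPM in media and 186, 209.9, 201 and 199 CPM in lactate. Media and lactate did not overlap for Scd1 either (log2 fold change -0.65 ± 0.23 (SE), adjusted p = 0.0375), and its adjusted p with the donor block was 0.000861. Only uniquely mapped reads were counted, so reads from stretches that Scd1 and Scd2 share would be missing from both.

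Of the 3 elongases 1 was higher with lactate. Elovl1, which extends saturated very long chains (chromosome 4, 118428093 to 118432953, plus strand), stood at 55.9, 55.2, 54.8 and 72.9 CPM in naïve libraries, 77.8, 57.7, 68.6 and 72.5 CPM in media and 113, 101, 111 and 105 CPM in lactate. It was 1.55-fold higher in lactate than in media (log2 fold change 0.64 ± 0.12 (SE), adjusted p = 0.0012), was called in all 12 fits that left out a library, and did not differ detectably between media and naïve cells (log2 0.21, adjusted p = 0.123). Elovl6, which extends palmitate, was at 67.2 to 89.0 CPM in media and 97.1 to 104 CPM in lactate, without overlap but not called (log2 fold change 0.28 ± 0.28 (SE), adjusted p = 0.456). Elovl5, which extends polyunsaturated chains, was at 236 to 264 CPM and 195 to 223 CPM (log2 -0.21, adjusted p = 0.103), and its rise on activation (log2 0.35, adjusted p = 0.00578) was lost in 9 of the 12 fits that left out a library.

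The 5 regulators have opposite roles. Scap, the escort that carries SREBPs to the Golgi (chromosome 9, 110333288 to 110384950, plus strand), stood at 129, 111, 128 and 146 CPM in naïve libraries, 108, 88.8, 97.3 and 102 CPM in media and 149.6, 122, 135 and 141 CPM in lactate. Lactate was above media in every library, 1.38-fold (log2 fold change 0.47 ± 0.10 (SE), adjusted p = 0.00346), and media was lower than naïve (log2 -0.37, adjusted p = 0.00586), the only lower call of the members in that comparison. The higher call with lactate was lost when media replicate 2 or 3, or any lactate library but replicate 2, was left out (highest adjusted p 0.0137, without lactate replicate 4). The lower call against naïve was lost without naïve replicate 1 or 4 or media replicate 2 or 3 (highest adjusted p 0.0188). Of its exon bases, 13.2% overlap another gene on the opposite strand.

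Insig1, the retention protein that is itself an SREBP target (chromosome 5, 28071363 to 28078662, plus strand), stood at 41.0, 37.4, 35.8 and 62.6 CPM in naïve libraries, 202, 177, 169 and 166 CPM in media and 95.4, 106, 123 and 119 CPM in lactate. It was 4.04-fold higher in media than in naïve cells (adjusted p = 5e-07) and 1.61-fold lower in lactate than in media (log2 fold change -0.69 ± 0.16 (SE), adjusted p = 0.00526). The lactate call was lost in 7 of 12 fits that left out a library, at most to 0.0192 without lactate replicate 1, although the groups did not overlap. Insig2, its less sterol-responsive relative, overlapped between the activated groups (log2 -0.34, adjusted p = 0.194) and rose 2.77-fold on activation.

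Srebf2, which encodes the SREBP most tied to sterol genes, stood at 317, 300.2, 316 and 412 CPM in naïve libraries, 859, 790.1, 811 and 807 CPM in media and 645, 626, 658 and 637 CPM in lactate. Every lactate library was under every media library, short of the threshold (log2 fold change -0.35 ± 0.10 (SE), adjusted p = 0.0145). With the donor block the adjusted p was 0.00892. Srebf1, tied more to fatty acid genes, was at 268 to 282 CPM in media and 199 to 236 CPM in lactate, also without overlap (log2 fold change -0.37 ± 0.13 (SE), adjusted p = 0.0413). By length-corrected level Srebf2 was above Srebf1 in media (394 against 169 TPM). Transcript levels say nothing of how much SREBP protein was cleaved.

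**Figure D3:**
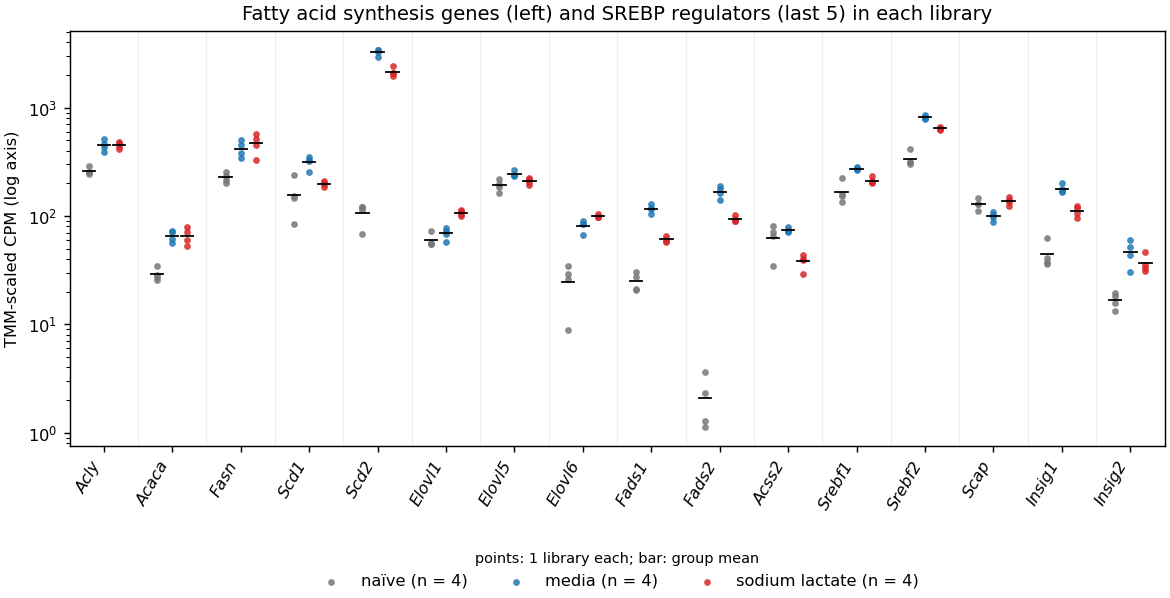
TMM-scaled CPM (log axis) of the 11 fatty acid branch genes and, at the right, the 5 SREBP regulators, with naïve libraries in grey, media in blue and sodium lactate in red, 1 point per library and a bar at the group mean. Fads2 and Scd2 show the largest distance between naïve and activated points, and the lactate points of Acss2 lie under all its media points.

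The labels name no batch, but the library numbers in them fall into a low range, 1 to 9, and a high range, 16 to 26, and the comparison was also read within each. The lactate and media libraries did not overlap for any of the 10 members called between them. Their sign within each range was therefore fixed, and it is no separate support for the calls. The differences in mean log2 CPM in the low and the high range were -0.76 and -0.79 for Hmgcs1, -0.96 and -0.91 for Fads1, -1.01 and -0.98 for Acss2, 0.66 and 0.57 for Elovl1 and -0.85 and -0.46 for Insig1. The high range holds 1 media library and 2 lactate libraries, so its values have no error on the media side. The only naïve library in that range is replicate 4.

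**Figure D4:**
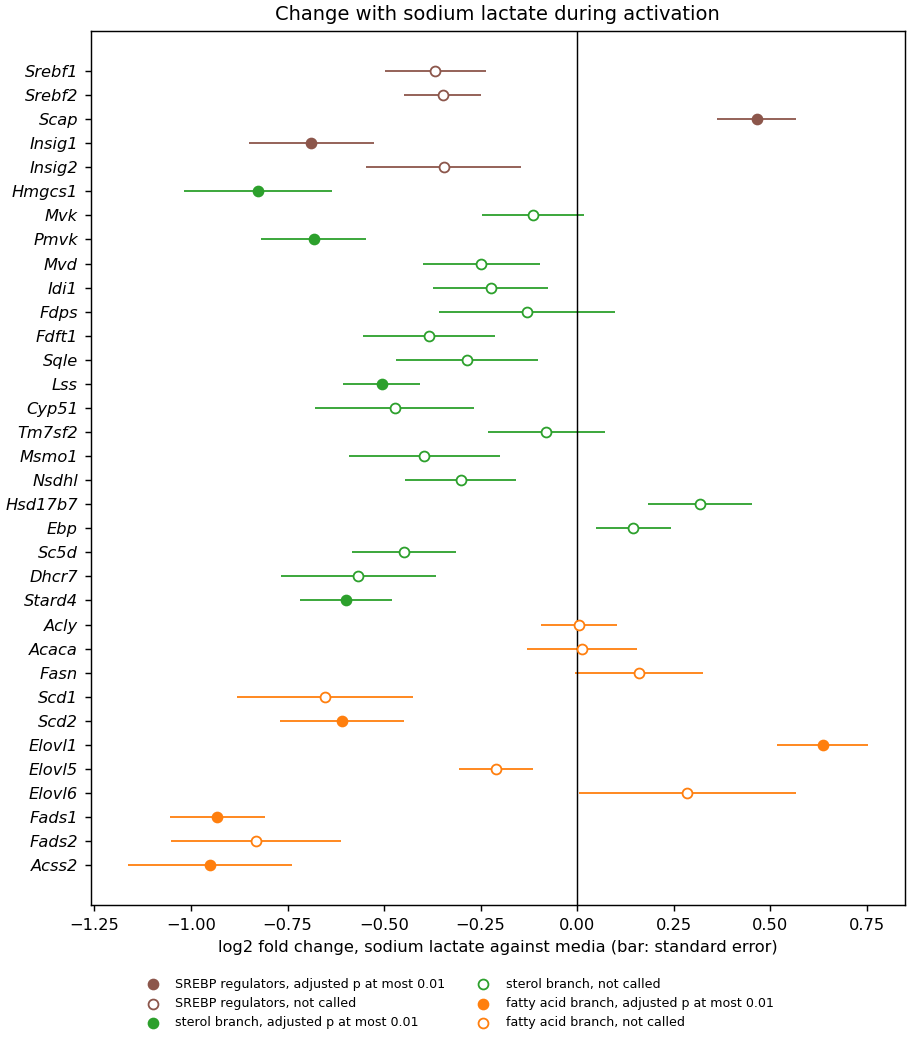
Log2 fold change of sodium lactate against media for all 34 genes with the standard error, filled where the adjusted p was at most 0.01 and open where it was not. The 8 filled points under 0 run from Lss at -0.51 to Acss2 at -0.95, and the 2 above 0 are Scap at 0.47 and Elovl1 at 0.64.

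Genes next to these routes were read from 5 further lists. Of 8 genes that process or degrade SREBP regulators, none was called between lactate and media by edgeR or DESeq2. Over all genes edgeR called 11.1% lower and 13.9% higher, and DESeq2 16.8% and 16.3%. Whether none of 8 differs from those shares was not tested. In edgeR 1 of the 8 had an unadjusted p under 0.05, Mbtps2, the site-2 protease (adjusted p = 0.0772), which is named here because its p was seen. The list of 12 genes for the isoprenoid branch also holds Acat2, which acts before Hmgcs1. Of these 12, none was lower with lactate by edgeR or DESeq2. DESeq2 called 5 higher, against 16.3% of all genes, and edgeR called 2 higher, against 13.9%. The 2 were Pdss1, a subunit of the enzyme that makes the side chain of ubiquinone (8.88, 7.15, 10.6 and 7.52 CPM in media, 24.8, 18.2, 19.5 and 19.7 CPM in lactate; log2 fold change 1.26 ± 0.20 (SE), adjusted p = 0.000538), and Nus1, a subunit of the dolichol synthase (log2 fold change 0.76 ± 0.13 (SE), adjusted p = 0.000787). In 9 of the 12 every lactate library was above every media library, as in 23.2% of all genes, and the list had a median log2 fold change of 0.35.

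The list of liver X receptor (LXR), sterol storage and efflux genes had 4 of 10 lower with lactate, against 11.1% of all genes, and none higher. Vldlr, a lipoprotein receptor, stood at 34.6, 45.5, 35.8 and 31.8 CPM in media and 4.25, 7.65, 3.47 and 5.73 CPM in lactate (log2 fold change -2.80 ± 0.28 (SE), adjusted p = 5.56e-05). Abca1, the cholesterol exporter, stood at 1.29, 3.55, 1.62 and 2.07 CPM in media and 0.359, 0.21, 0.354 and 0.337 CPM in lactate (log2 fold change -2.73 ± 0.47 (SE), adjusted p = 0.0008), after naïve levels of 107, 80.5, 54.6 and 139.7 CPM. Npc2, a lysosomal cholesterol carrier, and Nr1h2, which encodes LXR beta, were lower as well (log2 -1.22 and -0.38, adjusted p = 0.000538 and 0.00249), although Nr1h2 had an adjusted p of 0.0117 with the donor block. In media against naïve cells 2 of the 10 were higher and 5 lower, against 28.5% and 29.0% of all genes. Vldlr rose (log2 9.55, adjusted p = 7.45e-09), while Abca1 and Nr1h3 fell (log2 -5.49 and -6.21, adjusted p = 5.79e-08 and 8.2e-08). These falls stand beside the loss of B cell and myeloid markers given above, and the part of those cells in them was not tested.

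Among 14 partners of elongation and fatty acid activation, 2 were higher with lactate and 1 was lower, 14.3% and 7.14%, near the 13.9% and 11.1% of all genes. Acsl1, an acyl-CoA synthetase, was higher (log2 fold change 1.57 ± 0.35 (SE), adjusted p = 0.004), and the call was lost when media replicate 2, or any lactate library but replicate 2, was left out. Mcat, the mitochondrial malonyl transferase, was higher (log2 0.71, adjusted p = 0.00232), a call lost without lactate replicate 4. Elovl7, another elongase, was lower (log2 -1.57, adjusted p = 0.00026). Of 10 genes of glycerolipid assembly, Agpat3 was higher (log2 1.12, adjusted p = 0.002), and Agpat4 (log2 -0.59, adjusted p = 0.000888) and Lpin1 (log2 -1.29, adjusted p = 6.58e-05) were lower. Lpin1, a phosphatidate phosphatase, stood at 69.5, 68.4, 62.6 and 46.0 CPM in naïve libraries, 182, 182, 171 and 148 CPM in media and 59.3, 79.0, 67.1 and 73.6 CPM in lactate, so that the lactate values overlapped those of naïve cells and lay under all media values.

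The promoter windows, 250 bases before to 50 bases after each RefSeq start site, were searched on both strands for 4 motifs. CCAAT was found in at least 1 window of 14 of 14 sterol genes with a window, 5 of 8 fatty acid genes and 4 of 5 regulators, against 43.3% of the 9903 genes of the count table that had a window. GGGCGG, the Sp1 box, was in 13 of 14 sterol genes, 4 of 8 fatty acid genes and 5 of 5 regulators against 67.7% of those genes. CACGTG, the E-box, was in 3 of 14, 1 of 8 and 2 of 5 against 11.7%. TCACNCCAC was in 1 member, Hmgcs1, 137 bases before the start site, against 1.32%. The letters are the whole of what was searched, and a match is no proof of binding.

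In the sequences printed above, Lss has its CCAAT 62 bases before the start site and the printed Elovl1 window has 1 at 35 bases before it. Pmvk has 1 at 136 bases before it, and Scap has none in its windows. Among the 14 sterol genes with a window, CCAAT was present in Hmgcs1, Pmvk and Lss, which were called lower with lactate, and equally in the others, which were not called.

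**Figure D5:**
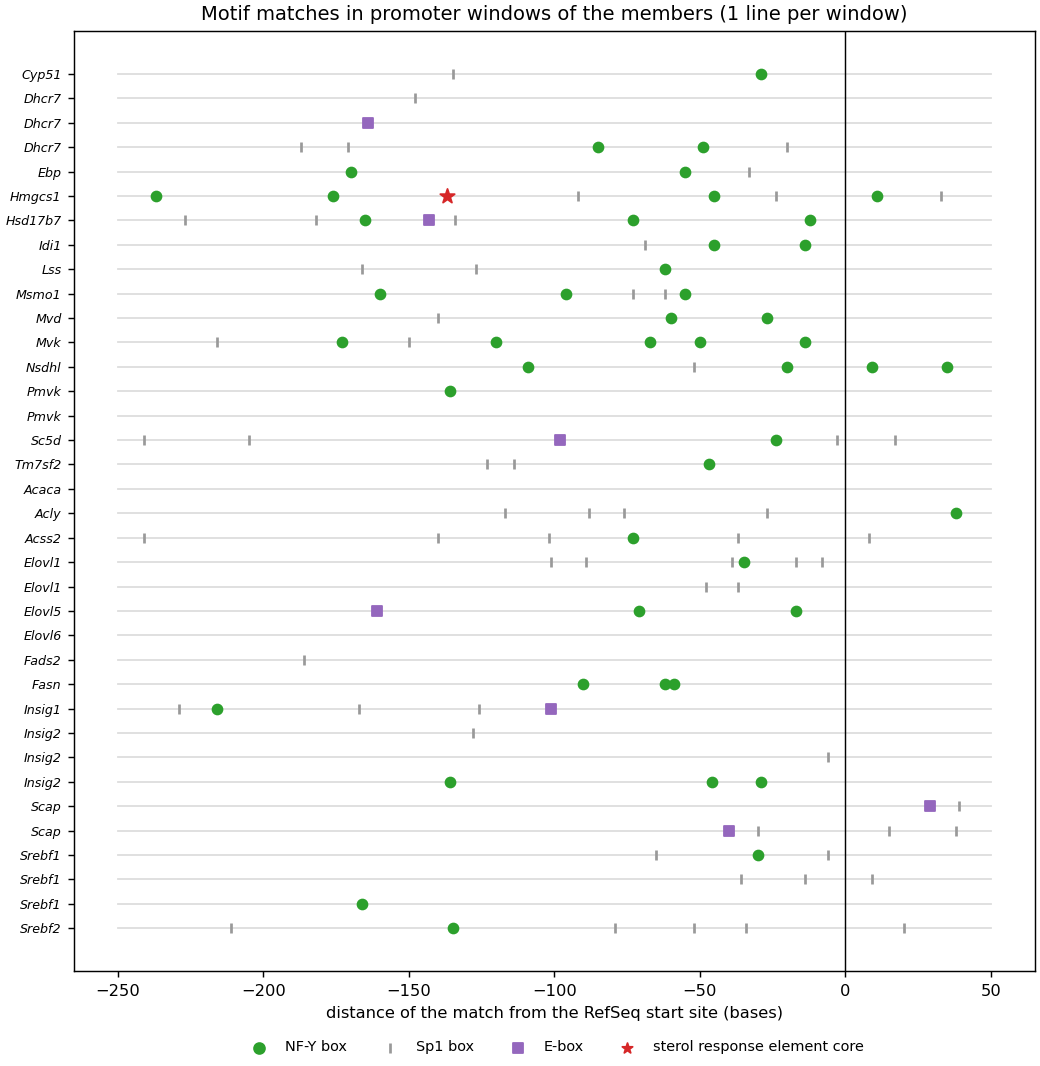
Position of motif matches relative to the RefSeq start site (bases, negative before it) in the 36 promoter windows of 27 members, sterol genes first, then fatty acid genes, then regulators, with 1 line per window. Green circles mark CCAAT, grey bars GGGCGG, purple squares CACGTG and the red star TCACNCCAC, which occurs once, in Hmgcs1 at -137.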

How the data were processed

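Poly(A) RNA of 12 mouse CD8+ T cell samples was sequenced from TruSeq Stranded mRNA libraries. The authors demultiplexed with bcl2fastq (2.20.0.422), mapped to GRCm38 with STAR (2.7.5b), removed duplicates and counted uniquely mapped reads in exons with featureCounts; the strand setting was not given in the sources used here. The deposited values are raw counts per gene with the gene's length. Depth was 14726904 to 21478137 counts. Here counts were tested with edgeR (4.0.16) in R (4.3.3): a minimum of 1 CPM in 3 libraries, TMM, 1 quasi-likelihood model over 3 groups of 4, two-sided, Benjamini-Hochberg over 13767 genes, called at an adjusted p of at most 0.01. SEs were taken from the log2 fold change and the F statistic. Log2 CPM used a prior count of 2, and TPM the deposited lengths. The 13 rows without a symbol stayed in as genes with their identifiers.

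The members and lists were chosen with earlier results of these data known. Every member may be named, with the neighbours called in lactate against media and up to 3 per list against naïve. Overlaps come from GENCODE vM21 and promoters from RefSeq (GRCm38.p6). The labels carry donor tags. A tag recurs within a group of 4 different mice, so tags were taken to restart between library numbers 1 to 9 and 16 to 26, an inference on which the donor block rests. Deviations from the group means in media and lactate libraries matched in this way had r of 0.374, 0.211 and 0.553. Media replicate 2 and lactate replicate 2, which share no tag, had r of 0.297, so these correlations do not settle the pairing. The main fit had no donor term, and the libraries were treated as paired only in the donor block. Alternatives were DESeq2 (1.42.0), its size factors, total counts alone, no filter, 2 groups alone, replicate blocks, a term for the library number range, a threshold of 0.05 and leaving out each library. Both replicate blocks were fitted on the 2 compared groups alone.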

Additional observations from a re-analysis of the deposited data

Results flagged for a closer look

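Within groups of 4 libraries, a library was marked where its gap to the nearest of the others was too large a part of the group's range by Dixon's 95% criterion, which chance gives in about 1 of 20 groups. Of 102 groups of member values, 9 were marked, 8.82%, and 8 of the 9 were naïve replicate 4. It was high for Hmgcs1 at 96.9 CPM (the others 49.5 to 57.1), Fdps at 4.59 (2.04 to 2.21), Cyp51 at 46.1 (21.3 to 24.5), Msmo1 at 36.5 (19.2 to 20.7), Elovl1 at 72.9 (54.8 to 55.9) and Srebf2 at 412 (300 to 317). It was low for Mvd at 13.1 CPM (18.6 to 19.0) and Scd2 at 67.8 (114 to 122). The remaining mark was Elovl5 in media replicate 2, at 264 CPM against 236 to 241.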

How the results depend on the processing

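Activation calls of the sterol branch were 18 of 18 in both comparisons with naïve cells under the 20 alternatives run for them, except leaving out naïve replicate 2, which lost Ebp in media against naïve. The donor block was run for lactate against media alone. For lactate against media the number of sterol genes called, 4, became 7 with the 2 groups fitted alone, 8 with the title numbers as a replicate block (7 lower and Hsd17b7 higher) and 7 with the donors as a replicate block, and ran from 3 to 8 over the fits without 1 library, 8 being without naïve replicate 4. The fatty acid number, 4, ran from 2 to 6 over those fits, the lowest when any of media replicates 2, 3 and 4, or any lactate library but replicate 2, was left out. Title numbers gave pair correlations of 0.374, 0.297, 0.0038 and 0.553, and not all of these pairs share a donor tag. The estimate of Acly for lactate against media, 0.01 on the log2 scale, turned to -0.0283 with DESeq2, -0.0282 with its size factors, -0.0398 with total counts, -0.0686 with the donor block and -0.00904 with a term for the library number range, and ran from -0.0553 to 0.0703 over the fits without 1 library. Acaca, 0.01, turned to -0.0209, -0.0207, -0.0338 and -0.0658 in the first 4 of these and ran from -0.0912 to 0.106. For lactate against naïve, Scap turned to -0.00271 with DESeq2 and its size factors and ran from -0.0619 to 0.153 over the fits without 1 library, and Elovl5 ran from -0.0177 to 0.212, both turning without naïve replicate 2. The cause of these turns was not tested, and all lie near 0. The depth limits Fads2, Fdps and Idi1 in naïve libraries, where they stand at a few CPM.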
